A study of Homo sapiens with 6 samples.

Results

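OSBPL3 and its relatives of the oxysterol-binding protein family were followed in hTERT RPE-1 cells that had received a short, low dose of camptothecin. The genes were taken from the deposited table by symbol, keeping the first row of each identifier. All 10 symbols sought (OSBPL3, OSBP, OSBPL1A, OSBPL2, OSBPL5, OSBPL6, OSBPL8, OSBPL9, OSBPL10 and OSBPL11) had a row, out of 13696 genes in the table, and all 10 had a mean of at least 1 CPM (reads of a gene scaled to the total of its library). OSBP2 and OSBPL7, which belong to the same family, also had rows but were not among the symbols sought. Their values are given separately.

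hTERT RPE-1 is a line of human retinal pigment epithelial cells immortalised with telomerase. Camptothecin traps topoisomerase 1 on DNA. The pre-dose group (3 libraries) received 25 nM camptothecin for 1 h and was harvested 24 h after its removal, and the untreated group (3 libraries) received no drug. Poly-A RNA was sequenced, and nothing in the labels says whether replicates came from separate cultures. The p-values therefore cover the spread among these libraries alone, which may be technical.

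Oxysterol-binding protein related proteins (ORPs) carry lipids between membranes at contact sites. Most reach the endoplasmic reticulum through VAP proteins or a membrane anchor and reach a partner membrane through a domain that binds phosphoinositides. Several exchange a lipid such as cholesterol or phosphatidylserine against phosphatidylinositol 4-phosphate (PI4P), which the phosphatase SAC1 removes at the endoplasmic reticulum. ORP3, the product of OSBPL3, binds VAP proteins and the small GTPase R-Ras and is known for effects on cell adhesion and spreading.

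OSBPL3 (ENSG00000070882) lies on the minus strand of chromosome 7 from 24796539 to 24981634 (GRCh38, GENCODE release 29). The sequences around its RefSeq transcription starts (GRCh38.p14) are shown because the deposited values sum all transcripts of the gene and so cannot say from which start the reads came. Each runs 5′ to 3′ on the minus strand over 250 bases before and 50 after a start. Capitals mark CCAAT and GGGCGG on either strand.
OSBPL3 upstream start, chr7:24980129-24980428: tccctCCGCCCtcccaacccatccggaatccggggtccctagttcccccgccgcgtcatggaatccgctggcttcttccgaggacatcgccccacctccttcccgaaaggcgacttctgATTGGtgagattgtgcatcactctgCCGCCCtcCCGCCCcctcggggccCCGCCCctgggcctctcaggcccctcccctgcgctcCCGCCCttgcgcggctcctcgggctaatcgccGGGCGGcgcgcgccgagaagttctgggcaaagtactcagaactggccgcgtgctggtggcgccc
OSBPL3 internal start, chr7:24892572-24892871: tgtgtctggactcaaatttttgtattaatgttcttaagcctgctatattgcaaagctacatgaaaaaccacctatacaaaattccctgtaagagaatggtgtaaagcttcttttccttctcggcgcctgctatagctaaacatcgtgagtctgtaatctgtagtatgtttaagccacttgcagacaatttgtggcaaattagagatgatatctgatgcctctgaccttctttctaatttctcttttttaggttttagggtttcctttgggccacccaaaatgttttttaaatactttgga
The window at the upstream start held 30 CpG dinucleotides, 1 CCAAT and 6 GGGCGG matches, and the internal one 3 CpG dinucleotides and neither motif. The 10 members had 16 such windows in RefSeq, with a median of 26 CpG dinucleotides against 14 over all 35116 windows. GGGCGG was present in 10 of the 16 member windows and in 44.95% of all windows, and CCAAT in 6 of 16 and in 34.6%. TATAAA was present in 2 of 16 (OSBPL1A and OSBPL6) and in 11.5% of all windows. The consensus decamer of p53, searched on both strands, was present in 1 of 16 (OSBPL10) and in 6.63% of all windows. These matches are letters in a window and show no binding.

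The libraries had effective totals of 26336942 to 31780392 reads. The pre-dose and untreated libraries of replicate 1 stood apart from the other 4, at -18.0 and -20.6 on a first principal component that held 59.4% of the variance, where the others lay between 6.94 and 16.4. Values are therefore given for each same-numbered pair. The labels do not state this pairing, and the data do not settle it for replicates 2 and 3. Of the 19 symbols sought for the pigment epithelium, alternative names included, 7 were measured. These were MITF (44.9 to 50.6 CPM), OTX2 (15.8 to 18.4 CPM), PAX6, BEST1, KRT8, KRT18 and CDH3 (0.771 to 2.36 CPM). RPE65, RLBP1, TYR, TYRP1, PMEL, DCT, LRAT, MERTK, SERPINF1 and TTR had no row in the table. Of the 10 markers of mesenchymal cells sought, THY1 (700 to 740 CPM), PDGFRB, COL1A1, ACTA2, FAP and PDGFRA (2.22 to 3.43 CPM) were measured. COL1A2, COL3A1, DCN and LUM had no row. Among neuronal markers TUBB3 (255 to 400 CPM), MAP2 and SNAP25 (0.967 to 1.61 CPM) had rows, whereas SYP, RBFOX3 and SYN1 did not. Of the blood cell markers only HBB had a row. The summed level of the 6 measured mesenchymal markers was 1070 to 1383 CPM in pre-dose and 1109 to 1509 CPM in untreated libraries. That of the 7 measured pigment epithelium markers was 1407 to 1454 CPM in pre-dose and 1413 to 1555 CPM in untreated libraries. Most of the latter sum came from the keratins KRT8 and KRT18, which averaged 918 and 434 CPM. In the fit 3 of these 7 were higher after the pre-dose, with a median difference of -0.0097. The groups did not overlap for KRT18, at 413 to 428 CPM in pre-dose and 431 to 461 CPM in untreated libraries. Nor did they for HBB, at 13.7 to 16.1 and 17.2 to 19.0 CPM in pre-dose and untreated libraries. Groups did not overlap for 6.55% of all genes tested. In bulk samples such as these, fewer cells of a kind and less RNA per cell cannot be told apart.

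OSBPL3, chosen by this comparison, was higher after the pre-dose in each pair of libraries. It was the single member of the 10 whose groups did not overlap, beside 6.55% of all genes tested. It had 40.8, 46.2 and 42.7 CPM in pre-dose replicates 1, 2 and 3, against 34.1, 35.3 and 33.9 CPM in untreated replicates 1, 2 and 3. Every pre-dose library was above every untreated one, and the untreated libraries lay close together. The mean was 43.2 ± 2.74 CPM in pre-dose and 34.4 ± 0.753 CPM in untreated libraries (SD, n = 3 each), a ratio of 1.25. On the log2(CPM + 1) scale the differences were 0.25, 0.38 and 0.33 in the replicate 1, 2 and 3 pairs, with a mean of 0.32 and an SE of 0.068 in the limma fit. The 929 to 1392 estimated reads behind each value correspond to a counting error of 2.68 to 3.28% of the value.

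OSBPL3 was chosen by its difference between pre-dose and untreated libraries, and the family was taken up with it, so these differences are a description and are given no test. The authors' deposited table gave OSBPL3 a log2 difference of 0.33 and an adjusted p of 0.0254, the only one of the 10 members past 0.05 there, with 3.05% of all genes past it. It stood at rank 25 by p-value in the authors' deposited table. The other 9 members had adjusted p values from 0.192 (OSBPL2) to 0.928 (OSBPL5) in the authors' deposited table. OSBP2 and OSBPL7, the family genes outside the 10, had lower ones there, 0.141 and 0.134. Their log2 differences in that table were 0.28 and 0.20, both higher after the pre-dose. In limma, 0 of the 10 members passed an adjusted p of 0.05, as did 0% of all 13616 genes tested. At an unadjusted p under 0.05 limma held 1 member, OSBPL3, and 2.06% of all genes. Groups did not overlap for 6.55% of all genes tested. Voom with library quality weights, which gave the replicate 1 libraries the lowest weights, called 1 member (OSBPL3) and 0.793% of all genes. Replicates 2 and 3 alone called 2 members in limma (OSBPL3 higher and OSBPL8 lower) and 6.36% of all genes. Nothing is read from these counts, since the same comparison led to the choice of genes.

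**Figure D1:**
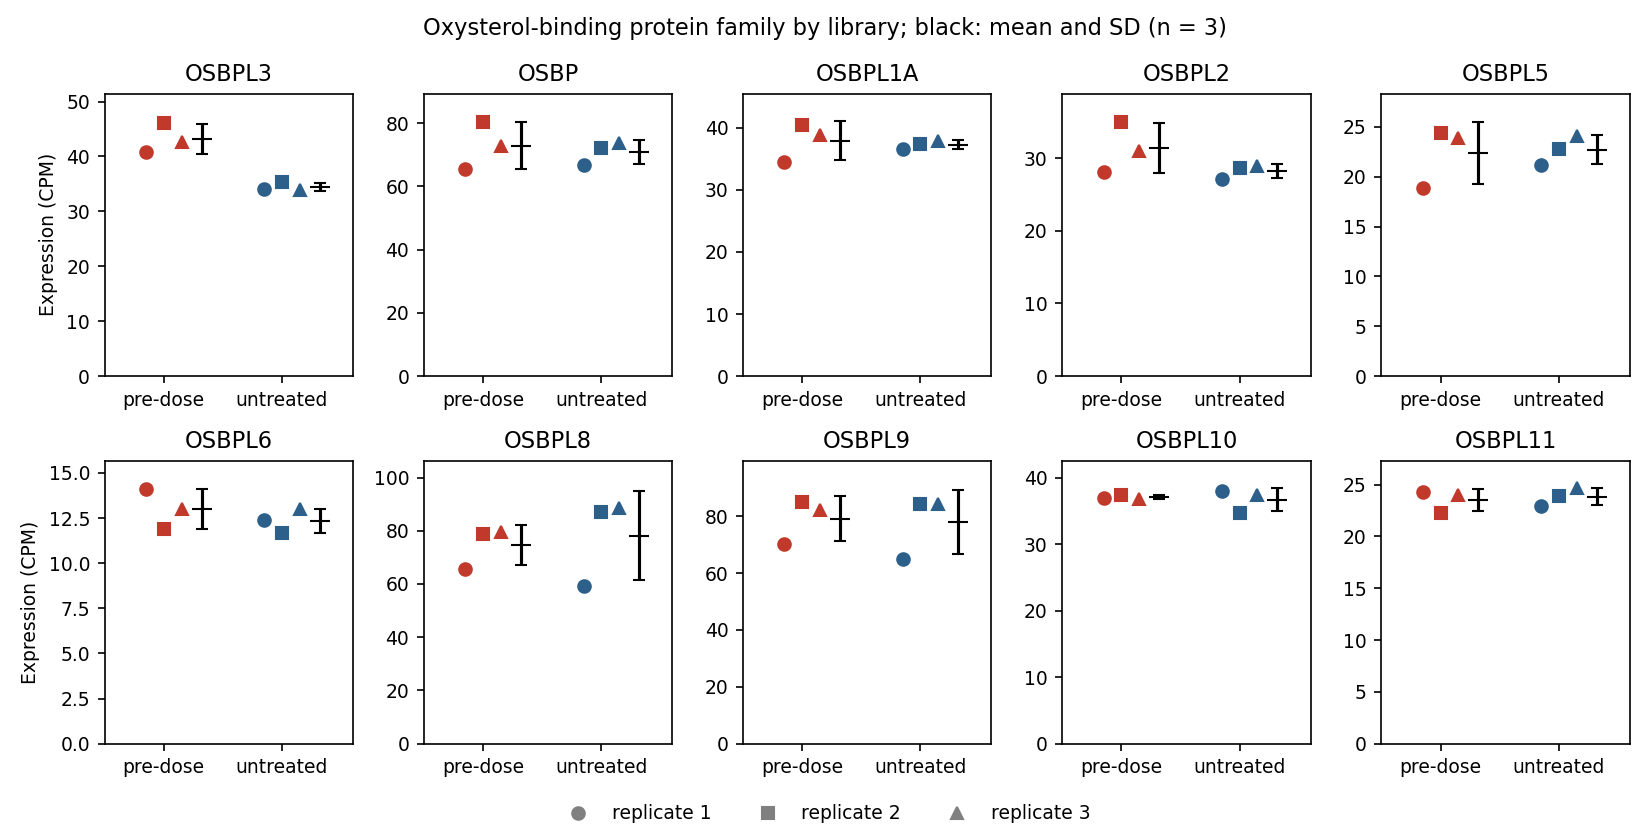
Expression in CPM of the 10 family members in each pre-dose (red) and untreated (blue) library, with the group mean and SD in black. The 3 pre-dose libraries of OSBPL3 lie between 40.8 and 46.2 CPM, above its untreated libraries at 33.9 to 35.3 CPM, and in every other panel the groups overlap.

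The fitted differences of the other 9 members ran from -0.048 (OSBPL8) to 0.14 (OSBPL2) with a median of 0.022, and the median over all 10 was 0.025, beside -0.0013 over all genes tested. The OSBPL8 value rested on single libraries, at -0.24 without untreated replicate 1, and positive without pre-dose replicate 1 (0.039), untreated replicate 2 (0.041) or untreated replicate 3 (0.051). The median size of the difference, regardless of sign, was 0.033 over the 10 members and 0.057 over all genes tested. Of the 10 members, 3 (OSBPL3, OSBPL2 and OSBPL6) had a positive difference in each of the 3 pairs and 0 had a negative one throughout, where 15.6% and 16.3% of all genes did so. For OSBPL6 this depends on the unsettled pairing of replicates 2 and 3. Its pre-dose replicate 2 (11.9 CPM) lay below its untreated replicate 3 (13.0 CPM).

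The closest relatives of OSBPL3 by sequence are OSBPL6 and OSBPL7, which encode ORP6 and ORP7 of the same subfamily. OSBPL6 had 14.1, 11.9 and 13.0 CPM in pre-dose replicates 1, 2 and 3, against 12.4, 11.7 and 13.0 CPM in untreated replicates 1, 2 and 3. Its pair differences of 0.17, 0.027 and 0.00074 had the same sign, but the groups overlapped and the replicate 3 pair was level. OSBPL7 averaged 22.9 ± 3.31 CPM in pre-dose and 20.9 ± 1.55 CPM in untreated libraries (SD, n = 3 each). Its pairs differed by -0.17, 0.38 and 0.13, so the replicate 1 pair had the other sign.

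OSBP, the founding member, exchanges cholesterol for PI4P between the endoplasmic reticulum and the Golgi. It had 65.5, 80.5 and 72.9 CPM in pre-dose replicates 1, 2 and 3, against 66.6, 72.2 and 73.8 CPM in untreated replicates 1, 2 and 3. The pre-dose values lay on both sides of the untreated ones, and the fitted difference was 0.038 with a 95% interval of -0.17 to 0.24. Its close paralog OSBP2 had 3.21 ± 0.206 CPM in pre-dose and 2.85 ± 0.257 CPM in untreated libraries (SD, n = 3 each). OSBP2 differed by -0.059, 0.22 and 0.23 in the 3 pairs.

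OSBPL2 encodes ORP2, a short member without the phosphoinositide-binding domain at its start, and OSBPL1A encodes ORP1, whose long form senses cholesterol on late endosomes and binds RAB7. OSBPL2 had 28.1, 35.0 and 30.9 CPM in pre-dose replicates 1, 2 and 3, against 27.2, 28.6 and 28.9 CPM in untreated replicates 1, 2 and 3. Its pair differences were 0.047, 0.28 and 0.095, and pre-dose replicate 1 lay below untreated replicates 2 and 3. OSBPL1A averaged 37.9 ± 3.11 CPM in pre-dose and 37.2 ± 0.687 CPM in untreated libraries (SD, n = 3 each), and its pair differences of -0.081, 0.11 and 0.036 differed in sign.

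OSBPL5 and OSBPL8 encode ORP5 and ORP8, which are anchored in the endoplasmic reticulum and exchange phosphatidylserine for PI4P at the plasma membrane. OSBPL8 had 65.8, 78.7 and 79.5 CPM in pre-dose replicates 1, 2 and 3, against 59.1, 87.1 and 88.4 CPM in untreated replicates 1, 2 and 3. It was higher after the pre-dose in the replicate 1 pair (0.15) and lower in the replicate 2 and 3 pairs (-0.14 and -0.15), the widest spread between pairs among the members, with an SD of 0.17. OSBPL3 had the narrowest spread between pairs, with an SD of 0.064, which its choice by this same comparison favours. OSBPL5 averaged 22.4 ± 3.08 CPM in pre-dose and 22.7 ± 1.47 CPM in untreated libraries (SD, n = 3 each), and its pairs differed by -0.16, 0.095 and -0.016.

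OSBPL9 encodes ORP9, which works at contacts of the endoplasmic reticulum with the Golgi and endosomes and pairs with ORP10 and ORP11, the products of OSBPL10 and OSBPL11. OSBPL9 had 70.1, 85.1 and 82.1 CPM in pre-dose replicates 1, 2 and 3, against 64.8, 84.4 and 84.4 CPM in untreated replicates 1, 2 and 3. The replicate 1 libraries were the low ones in both groups. OSBPL10 had 37.0 ± 0.339 CPM in pre-dose and 36.7 ± 1.75 CPM in untreated libraries, and OSBPL11 had 23.5 ± 1.09 and 23.9 ± 0.836 CPM in the pre-dose and untreated libraries (SD, n = 3 each). The fitted differences were 0.015 for OSBPL10 (95% interval -0.13 to 0.16) and -0.019 for OSBPL11 (-0.18 to 0.14). Exons of NRDC on the opposite strand overlap those of OSBPL9, an annotated antisense gene overlaps exons of OSBPL10, and antisense or noncoding genes overlap exons of OSBPL1A and OSBPL9. The strand setting of the counting is not given in the sources used here, so reads of genes on opposite strands may not have been told apart. AC090772.3 (over OSBPL1A) and AL050343.1 (over OSBPL9) lie on the same strand as the member, where a strand setting does not separate reads. NRDC itself differed by -0.023 in the fit. Exons of OSBPL3 overlap no other annotated gene.

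**Figure D2:**
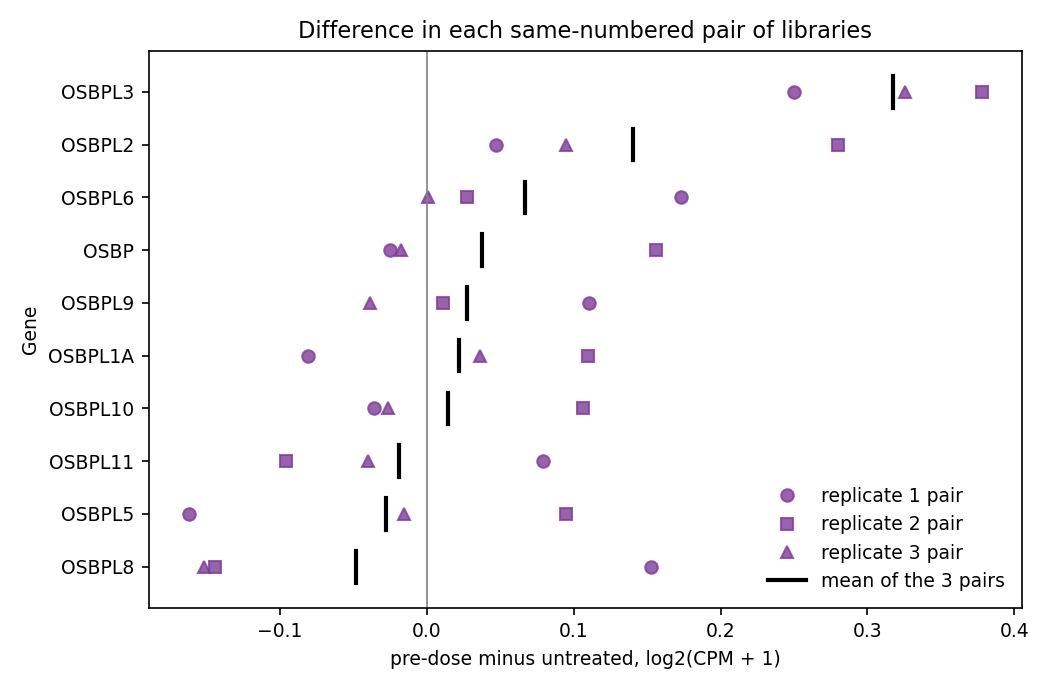
Difference between the pre-dose and untreated library of each replicate number, on the log2(CPM + 1) scale, for the 10 members, with the mean of the 3 pairs as a bar. All 3 points of OSBPL3 lie between 0.25 and 0.38, and 7 of the 10 members have points on both sides of 0.

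OSBPL3 was also set against its family inside each library, which removes what the members share. Its log2(CPM + 1) minus the mean of the 9 other members was 0.23, 0.25 and 0.17 in pre-dose replicates 1, 2 and 3, and 0.0057, -0.069 and -0.18 in untreated replicates 1, 2 and 3. Where 0 falls on this scale depends on the lengths of the genes, so only the distance between the groups can be read. It restates the difference by which OSBPL3 was chosen. The group means were 0.21 ± 0.042 in pre-dose and -0.080 ± 0.092 in untreated libraries (SD, n = 3 each), 0.29 apart. The mean of the 9 other members was 5.25 ± 0.082 in pre-dose and 5.23 ± 0.089 in untreated libraries (SD, n = 3 each), a difference of 0.024.

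**Figure D3:**
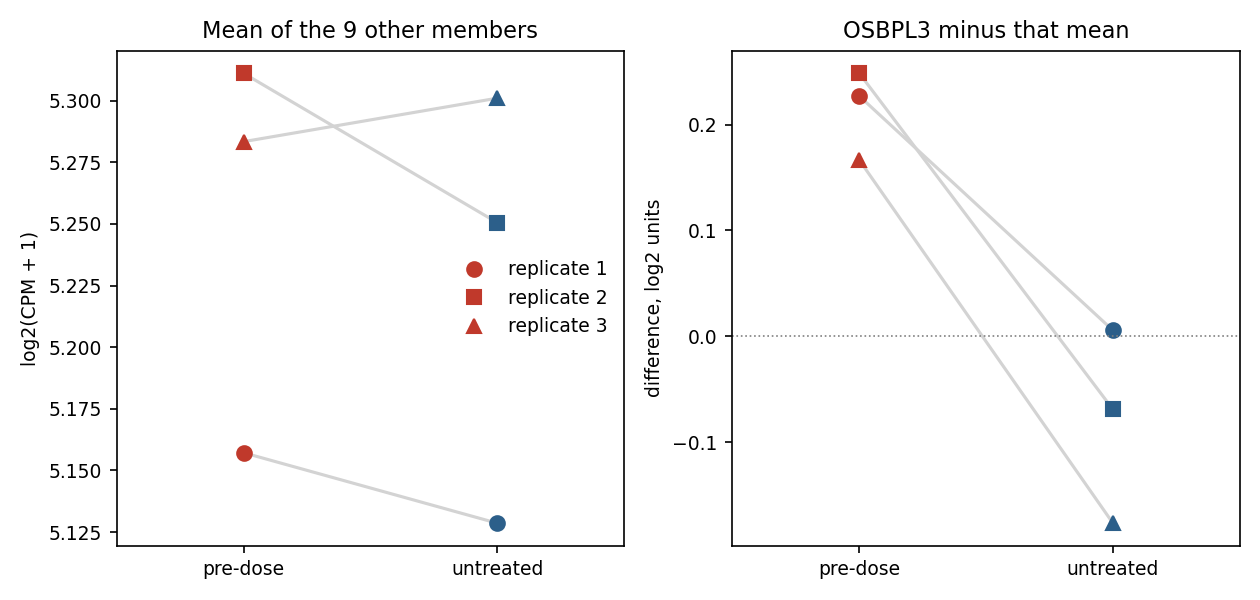
Left, the mean log2(CPM + 1) of the 9 other members in each library, and right, OSBPL3 minus that mean, with lines joining libraries of the same replicate number. The replicate 1 libraries are low on the left (5.16 in pre-dose and 5.13 in untreated), and the right panel separates the groups at 0.17 to 0.25 in pre-dose and -0.18 to 0.0057 in untreated libraries.

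The replicate 1 libraries differed from the others in the level of several members. The choice of genes did not use this contrast directly, and it was taken up with the separation of these libraries known. With treatment in the model, limma called 4 of the 10 members lower in replicate 1 and 0 higher, where 20.6% of all genes tested were called lower and 20.3% higher. Of the 6 measured mesenchymal markers, 5 were called lower in replicate 1 and 0 higher, and their part in the result was not tested. COL1A1, a collagen chain, averaged 149 CPM in the replicate 1 libraries and 354 CPM in the others, and ACTA2, smooth muscle actin, 62.2 CPM in the replicate 1 libraries and 93.4 CPM in the others. OSBPL8 averaged 62.5 CPM over the 2 replicate 1 libraries and 83.4 CPM over the other 4, a difference of -0.41 (SE 0.060, adjusted p = 6.21e-04 in limma). OSBPL9 averaged 67.4 and 84.0 CPM in the replicate 1 libraries and the others, a difference of -0.31 (SE 0.042, adjusted p = 4.10e-04 in limma). OSBPL5 differed by -0.24 and OSBP by -0.18 (adjusted p = 0.0132 and 0.0166 in limma). Without pre-dose replicate 1, OSBPL5 and OSBP were no longer past the threshold (adjusted p = 0.185 and 0.139, with the lone replicate 1 library assumed to vary like the others), while OSBPL8 and OSBPL9 passed in all 15 settings run.

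OSBPL3 itself was not past the threshold in that contrast. An offset widens the spread within groups, so choosing a gene by its treatment comparison favours a small offset. Nothing is read from this result for OSBPL3. Its level averaged 37.4 CPM over the replicate 1 libraries and 39.5 CPM over the other 4, a difference of -0.070 with a 95% interval of -0.19 to 0.048 (adjusted p = 0.317 in limma), and it did not pass in any of the 15 settings run. OSBPL2 (-0.15), OSBPL1A (-0.12), OSBPL11 (-0.0020), OSBPL10 (0.033) and OSBPL6 (0.089) did not pass either. The median offset was -0.13 over the 10 members, beside -0.012 over all genes tested. For CDKN1A, the cell cycle inhibitor p21 and a target of p53, the offset was -0.89 (adjusted p = 7.61e-04 in limma). Its treatment differences in the replicate 1, 2 and 3 pairs were 0.42, 1.32 and 1.02, where those of OSBPL3 were 0.25, 0.38 and 0.33. MDM2, the ubiquitin ligase of p53, had an offset of -0.40 (adjusted p = 0.00672 in limma) and pair differences of 0.20, 0.71 and 0.59.

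**Figure D4:**
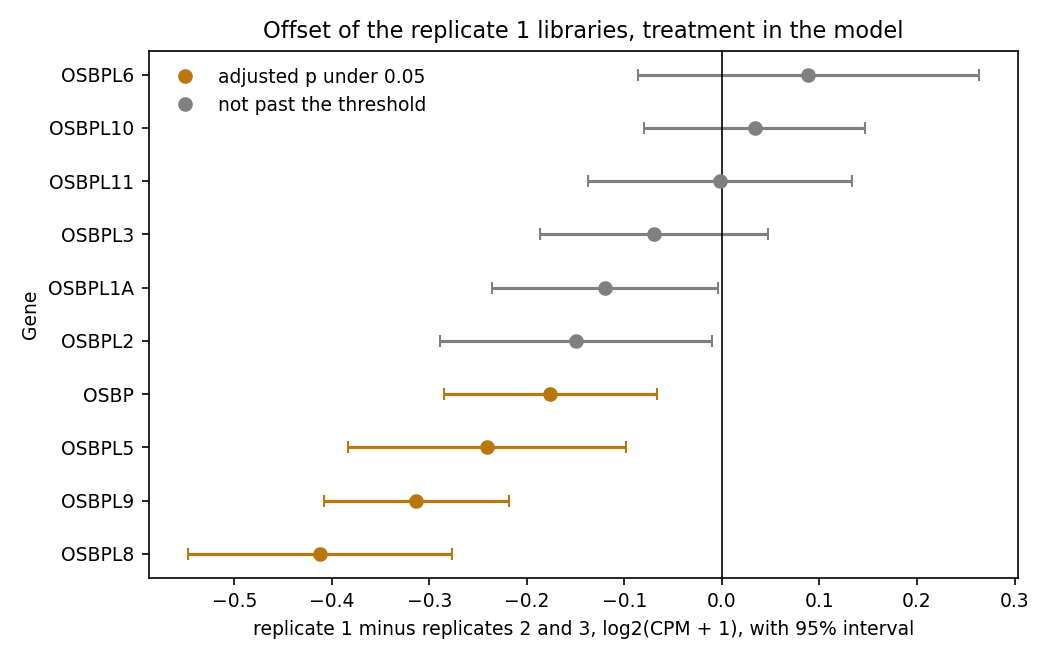
Level in the replicate 1 libraries minus that in replicates 2 and 3, on the log2(CPM + 1) scale with the 95% interval, from a limma fit with treatment in the model. OSBPL8, OSBPL9, OSBPL5 and OSBP pass an adjusted p of 0.05 at -0.41 to -0.18, and the interval of OSBPL3 spans 0.

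Levels of different genes were compared per length of the annotated exons. OSBP had the highest level by the union of exons, 13.3 ± 1.37 CPM per kb in pre-dose and 12.9 ± 0.681 CPM per kb in untreated libraries (SD, n = 3 each). OSBPL8 (8.12 ± 0.835 and 8.50 ± 1.80 CPM per kb in pre-dose and untreated libraries) and OSBPL9 (8.31 ± 0.835 and 8.18 ± 1.19 CPM per kb) came next and did not differ beyond their spread. OSBPL3 had 5.34 ± 0.338 CPM per kb in pre-dose and 4.25 ± 0.0930 CPM per kb in untreated libraries. In untreated libraries it stood sixth of 10, below OSBPL11 (5.69 ± 0.200 CPM per kb) and OSBPL1A (4.64 ± 0.0856 CPM per kb) and above OSBPL10 (3.06 ± 0.146 CPM per kb). In pre-dose libraries it was level with OSBPL11 (5.61 ± 0.259 CPM per kb) within their spread. OSBPL5 (3.04 ± 0.197 CPM per kb in untreated libraries) did not differ from OSBPL10 beyond the spread, and OSBPL2 (2.16 ± 0.0716 CPM per kb) and OSBPL6 (1.08 ± 0.0576 CPM per kb) closed the order.

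The order depended on the length used. With the longest coding transcript in place of the union of exons, OSBPL9 came first at 23.2 ± 3.37 CPM per kb in untreated libraries, since its longest coding transcript has 3352 bases and its exon union 9523. OSBPL3 then had 6.39 ± 0.405 CPM per kb in pre-dose and 5.09 ± 0.111 CPM per kb in untreated libraries, and stood eighth. OSBPL6 was lowest by either length.

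**Figure D5:**
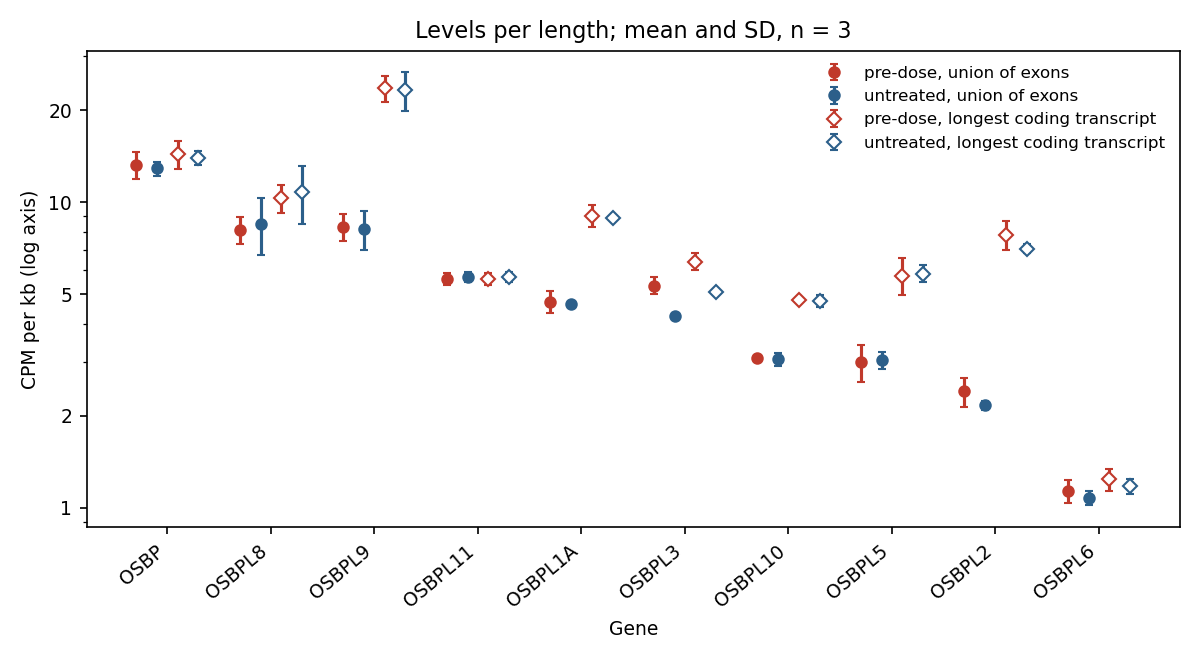
Level in CPM per kb on a log axis, mean and SD of 3 libraries per group, by the union of exons (filled) and by the longest coding transcript (open), ordered by the untreated level over the union. OSBPL2 moves most between the lengths, at 2.16 and 7.04 CPM per kb in untreated libraries, and OSBPL6 is lowest by both, at 1.08 and 1.18 CPM per kb in untreated libraries.

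Across the 6 libraries, the pattern of OSBPL3 was compared with that of every other tested gene by the root-mean-square distance between their deviations from their own means, on the log2(CPM + 1) scale. The 5 nearest genes were MREG (melanoregulin, 0.033), KRT15 (a keratin, 0.039), SHANK2 (a scaffold protein, 0.050), APOBEC3F (a cytidine deaminase, 0.050) and TNFAIP8L3 (a carrier of phosphoinositides, 0.053). This scale shrinks the deviations of low genes such as MREG and APOBEC3F, which averaged 1.56 and 1.94 CPM. On the deposited log2 CPM values, an alternative chosen after seeing the data, KRT15, SHANK2 and TNFAIP8L3 stayed among the 5 nearest, while MREG stood at rank 73 and APOBEC3F at rank 17. KRT15 had 10.4, 12.0 and 11.7 CPM in pre-dose replicates 1, 2 and 3, against 9.11, 8.90 and 8.58 CPM in untreated replicates 1, 2 and 3. The groups of all 5 genes did not overlap, which the nearness to OSBPL3 itself brings about. Within the family OSBPL2 was nearest to OSBPL3 (0.10) and OSBPL8 farthest (0.27). The closest pair of members was OSBP and OSBPL1A, at 0.040.

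The measured genes nearest to OSBPL3 on chromosome 7 had smaller fitted differences on the log2(CPM + 1) scale, which shrinks those of low genes. In the authors' deposited table FAM221A differed by -0.37, more in size than OSBPL3 at 0.33. The other neighbours differed by less than OSBPL3 there, NFE2L3 (-0.31) and C7orf31 (0.29) most among them. OSBPL3 was chosen by its difference, so nothing is read from this order. GSDME, which encodes the pore-forming gasdermin E and lies 38426 bases away, had 67.4, 68.2 and 65.7 CPM in pre-dose replicates 1, 2 and 3, against 63.3, 62.9 and 63.3 CPM in untreated replicates 1, 2 and 3. Its fitted difference was 0.086. MPP6, a scaffold protein on the same side, differed by -0.012. CYCS, which encodes cytochrome c and lies 138457 bases away on the other side, averaged 57.3 ± 8.92 CPM in pre-dose and 60.8 ± 1.94 CPM in untreated libraries (SD, n = 3 each). C7orf31, 153063 bases away and averaging 2.70 CPM, differed by 0.16 in the fit. FAM221A, 1093290 bases away and averaging 1.51 CPM, differed by -0.13. NFE2L3, a transcription factor gene 1170606 bases away, differed by -0.23. The groups did not overlap for 3 of the 6 neighbours, GSDME and C7orf31 (higher after the pre-dose) and NFE2L3 (lower after it), beside 6.55% of all genes. None of the 6 neighbours passed in limma, where 0% of all genes passed.

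Genes that work with the family were followed in 5 lists, and in limma 0 members of any list passed. Counts of genes higher or lower in all 3 pairs stand beside 15.6% (higher) and 16.3% (lower) of all genes tested. The 17 measured contact site tethers and ORP partners had a median difference of 0.0010, with 0 higher and 3 lower in all 3 pairs. RRAS, which encodes the R-Ras bound by ORP3, had 62.6 ± 5.82 CPM in pre-dose and 69.0 ± 6.53 CPM in untreated libraries (SD, n = 3 each), and its pairs differed by -0.13, -0.073 and -0.21. EXOC3, an exocyst subunit, had the next largest difference by size in that list, 0.078, with pairs of -0.0059, 0.14 and 0.10. The 17 measured kinases and phosphatases of PI4P and their partners had a median of 0.015, with 2 higher and 1 lower in all 3 pairs. FAM126A, a subunit of the complex that holds PI4KA at the plasma membrane, differed by -0.088, and ACBD3, which recruits PI4KB to the Golgi, by 0.087. The groups of both overlapped, and the FAM126A pairs differed in sign (0.12, -0.20 and -0.18). Both were called lower in the replicate 1 contrast (adjusted p = 0.0153 and 0.00290 in limma), beside 20.6% of all genes. The 26 measured members of other lipid transfer families had a median of -0.0035, with 6 higher and 4 lower in all 3 pairs. STARD5 (0.20) and PITPNC1 (-0.19) differed most by size, and the groups of both overlapped. The STARD5 pairs were -0.031, 0.32 and 0.30, and those of PITPNC1 -0.26, -0.26 and -0.048.

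Genes of oxysterol synthesis and targets of the oxysterol receptor LXR had a median difference of 0.0018 over 9 measured members. SREBF1, which encodes a sterol-regulated transcription factor, differed by -0.21 (95% interval -0.55 to 0.13). SMPDL3A, an LXR target averaging 3.20 CPM, differed by 0.20, and the groups of both overlapped. The replicate 1 offset of SREBF1 was -0.38. In that contrast 4 of the 9 genes were called lower and 0 higher, beside 20.6% and 20.3% of all genes, and its part here was not tested. The 10 genes of sterol sensing had a median of -0.098, with 1 higher and 5 lower in all 3 pairs, beside the 15.6% and 16.3% of all genes. In the replicate 1 contrast 7 of the 10 sterol sensing genes were called lower and 2 higher, beside the 20.6% and 20.3% of all genes, and the part of that offset in their treatment differences was not tested.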

How the data were processed

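The authors deposited 1 table for all 6 libraries, with expression on a log2 scale in CPM, derived from estimated counts: with each column's lowest value read as a count of 0 plus 0.5, 100% of the values under 200 reads lay within 0.05 of a hundredth of a whole hundredth of a read. Tools named by the submitters are bcl2fastq, DRAGEN, edgeR and limma, with build hg38. How reads were counted, and with which strand setting, is not given in the sources used here. Their own log2 fold changes, scores, p-values and transcript counts per gene are also deposited, per the file headers. The sign of that fold change (untreated minus pre-dose) was turned.

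Of 13773 rows, 77 that repeated an identifier were dropped. Limma-trend (limma 3.58.1, R 4.3.3) was fitted to log2(CPM + 1) of the 13616 genes averaging 1 CPM or more, with Benjamini-Hochberg adjustment, a threshold of 0.05 and two-sided tests. This scale understates fold changes of low genes. Fits were tested on simulated data with independent noise between libraries. The simulation left out the broad replicate 1 offset of these libraries, so it does not show how the fits behave under it. At the effective totals 3 counts are 0.0944 to 0.114 CPM, and counting errors cover counting only.

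Members and lists were chosen with earlier results of these data known. Named genes were the members, CDKN1A, MDM2, members of the partner lists past 0.05 in the authors' deposited table or else the 2 largest differences, the 3 measured neighbours on each side of OSBPL3 and the 5 nearest patterns. OSBP2, OSBPL7, NRDC and cell type markers were added for context. A gene of the sterol sensing list that this rule takes is not reported here.

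Deviations from the group mean correlated across genes between same-numbered libraries at 0.66, 0.45 and 0.18 (replicates 1, 2 and 3). Each was over 0.1, the value set for treating the numbers as pairs. Replicate 1 stood apart in both groups, so passing 0.1 does not show that the numbers pair replicates 2 and 3. Across numbers, pre-dose replicate 2 with untreated replicate 3 gave 0.51 and pre-dose replicate 3 with untreated replicate 2 gave 0.28, so the data do not settle the pairing of replicates 2 and 3. The labels do not state it. Positions and lengths are those of GENCODE release 29, promoter windows those of RefSeq (GRCh38.p14).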

Additional observations from a re-analysis of the deposited data

How the results depend on the processing

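The OSBPL3 difference ran from 0.27 to 0.36 over 17 alternatives, and from 0.27 to 0.36 when 1 library was left out. OSBPL3 against the mean of the other members ran from 0.25 to 0.34 over 11 alternatives and when 1 library was left out. With the replicate block the OSBPL3 difference was 0.32 with an adjusted p of 0.161 in limma, and the genes called stayed at 0, with 1443 at an unadjusted p under 0.05 against 280 without the block. The block changed no call. Replicates 2 and 3 alone gave 866 genes and 2 members, OSBPL3 higher and OSBPL8 lower, and with the replicate block as well (chosen after seeing the data) 1227 genes and 2 members. Voom with library quality weights, also chosen after seeing the data, gave 108 genes and 1 member, OSBPL3. With 1 library left out, the genes and members called were 0 in each case. The median over the members ran from -0.0092 (without pre-dose replicate 2) to 0.087 (without pre-dose replicate 1), where untreated replicate 1 had no partner. The members that differed in replicate 1 numbered 2 to 5 with 1 library left out (a lone replicate 1 library is assumed to vary like the others), 2 without pre-dose replicate 1 and 5 without untreated replicate 1, where OSBPL1A joined. The untreated level of OSBPL3 was 4.198 to 4.28 CPM per kb with 1 library left out and 5.09 CPM per kb with the longest coding transcript. OSBPL2 and OSBPL6 were higher in all 18 settings, and OSBPL9 was higher in 12 and lower in 6. Counting error was at most 5.71% of a member's value (OSBPL6).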
